A study of Mus musculus with 20 samples.

Results

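The genes described here are 8 targets of the nuclear receptor PPAR-alpha that act in fat oxidation, ketogenesis and the sparing of glucose: Cpt1a, Ehhadh, Acot1, Cyp4a10, Cyp4a14, Pdk4, Fgf21 and Vnn1. They were chosen by symbol, matched to the Ensembl identifiers of the count table, and are 8 of its 57010 genes. Livers and kidneys of male UM-HET3 mice were sequenced. UM-HET3 is a genetically heterogeneous cross, so no animal shares its whole genotype with another. The mice were 12 months old when osmotic minipumps were placed under the skin for 28 days. In the 7c group (6 livers and 6 kidneys) the pumps delivered 1 mg/kg/day of valproate and 0.1 mg/kg/day of each of repsox, tranylcypromine, DZNep, CHIR99021, forskolin and TTNPB. The vehicle group (4 livers and 4 kidneys) received the solvent alone, 50% DMSO and 50% PEG300, which the 7c mice received as well. The study asked whether this cocktail, which partially reprograms cultured fibroblasts, shifts biomarkers of aging in mice, read from gene expression in liver and kidney. The question here is whether the genes of fat oxidation differed with it.

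PPAR-alpha is a ligand-activated transcription factor of hepatocytes and of the renal proximal tubule. It is activated by fatty acids, for example during fasting, pairs with the retinoid X receptor and binds direct repeats of the hexamer AGGTCA separated by a single base. Its targets take fatty acids into mitochondria and peroxisomes, oxidize them from either end, make ketone bodies in the liver and hold pyruvate back from oxidation. Many of these targets respond to feeding within hours, and neither the hour at which tissues were collected nor any fast before it is given in the sources used here. The mice had free access to food.

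The sequences below show where the members hold the closest match to this repeat (AGGTCANAGGTCA, both strands) in the 1000 bases before the start of the canonical transcript in GRCm39. They are the microsomal hydroxylases Cyp4a10 and Cyp4a14 and the thioesterase Acot1, whose counts varied together between livers. The peroxisomal enzyme Ehhadh, whose counts varied least between livers but not between kidneys, is shown as well. Each is read 5′ to 3′ on the strand of the match, with 15 bases on either side, and capitals mark bases equal to the letters of the repeat.
Cyp4a10: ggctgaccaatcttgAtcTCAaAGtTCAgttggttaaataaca
Cyp4a14: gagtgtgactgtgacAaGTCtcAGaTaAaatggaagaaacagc
Acot1: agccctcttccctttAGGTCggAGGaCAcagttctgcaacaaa
Ehhadh: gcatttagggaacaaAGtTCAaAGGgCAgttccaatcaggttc

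The Cyp4a10 stretch lies at chr4:115375370-115375412 on the minus strand, with the match 76 bases before the start of the gene. The Cyp4a14 stretch lies at chr4:115353803-115353845 on the minus strand, the Acot1 stretch at chr12:84055406-84055448 on the plus strand and the Ehhadh stretch at chr16:21607455-21607497 on the plus strand. The Acot1 and Ehhadh matches differ from the repeat at 2 bases, as do the best matches of Cpt1a and Vnn1, and 12.7% of the 21651 promoters of protein-coding genes searched in the same way hold a match at least as close. The best matches of Cyp4a10, Pdk4 and Fgf21 differ at 3 bases, which 62.2% of promoters reach, and that of Cyp4a14 differs at 4 bases, which 99.5% reach. A single hexamer without a mismatch occurs in 46.4% of promoters. These matches describe letters only, and binding was not measured.

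Liver libraries held 28383359 to 34153084 counts in total and kidney libraries 27855849 to 64872451, and every 7c liver library (at most 30571119) was smaller than every vehicle liver library (at least 31670440). The tissues matched their labels: the summed level of 6 hepatocyte markers was 66720 to 99079 CPM (read counts scaled to a common library total) in liver and 84.5 to 335 CPM in kidney, and that of 6 proximal tubule markers was 35447 to 71405 CPM in kidney and 0.406 to 1.65 CPM in liver, where Slc34a1, Slc5a12, Kap and Miox had 0 counts. The liver of 7c replicate 6 held skeletal muscle transcripts at a summed 622 CPM, against 0.328 to 1.83 CPM in the other livers. The clock genes Dbp and Bmal1, which oscillate in opposite phase, divided the 7c mice. Dbp was 0.266 to 2.06 CPM in the livers of 7c replicates 1 to 3, 3.54 to 5.14 CPM in vehicle livers and 23.9 to 93.1 CPM in 7c replicates 4 to 6, where Bmal1 was 4.95 to 18.5 CPM against 26.2 to 39.98 CPM in the other livers. CPM values here are scaled by TMM within a tissue unless stated otherwise.

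The 8 genes had very different levels in tissues of vehicle mice. As RPKM (reads per kilobase of exon and per sequenced total, with all vehicle libraries on a common scale), Ehhadh was the most abundant in both tissues, at 123 ± 15.1 RPKM (SD, n = 4) in vehicle livers and 133 ± 38.4 RPKM in vehicle kidneys. Ehhadh (ENSMUSG00000022853, chromosome 16) encodes the bifunctional enzyme of peroxisomal beta-oxidation. In liver it was followed by Cpt1a at 35.2 ± 5.54 RPKM, Cyp4a10 at 27.5 ± 36.3 RPKM, Cyp4a14 at 15.6 ± 24.2 RPKM, Pdk4 at 8.95 ± 3.82 RPKM, Acot1 at 6.74 ± 2.34 RPKM, Vnn1 at 3.70 ± 3.07 RPKM and Fgf21 at 2.66 ± 2.38 RPKM. The ranges of the 4 livers overlapped between every pair of neighbours in that order from Cpt1a downwards, so only Ehhadh stood apart. Divided by the longest transcript in place of the union of exons, Cpt1a was 56.9 ± 8.94 RPKM in liver and Acot1, at 10.1 ± 3.52 RPKM, came above Pdk4 at 9.03 ± 3.86 RPKM. In kidney the order below Ehhadh was Cyp4a10 at 75.0 ± 10.5 RPKM, Cpt1a at 32.3 ± 4.10 RPKM, Vnn1 at 17.3 ± 7.37 RPKM, Acot1 at 15.5 ± 5.66 RPKM, Pdk4 at 2.39 ± 1.03 RPKM, Cyp4a14 at 2.16 ± 2.10 RPKM and Fgf21 at 0.0325 ± 0.0376 RPKM. There, the ranges of Ehhadh and Cyp4a10, of Vnn1 and Acot1, and of Pdk4 and Cyp4a14 overlapped, and the other neighbours were separate.

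Of the 8 genes, 4 differed between vehicle liver and vehicle kidney, tested in edgeR by the quasi-likelihood method and adjusted after Benjamini and Hochberg over all 17245 genes tested. Pdk4, the kinase that switches off pyruvate dehydrogenase, was higher in liver, with a log2 fold change of 1.91 (adjusted p = 0.00108, standard error 0.367). Fgf21 encodes a hormone that the liver secretes, and had 30 to 190 counts per vehicle liver and 0 to 4 counts per vehicle kidney (log2 fold change 6.20, standard error 1.02, adjusted p = 0.000362). This fitted fold depends on the prior count, since 2 of the 4 kidneys had 0 counts. Acot1, which releases free fatty acids from acyl-CoA in the cytosol, was lower in liver, with a log2 fold change of -1.20 (adjusted p = 0.00377, standard error 0.280), and Vnn1, a membrane enzyme that splits pantetheine into pantothenate and cysteamine, was lower as well (-2.23, adjusted p = 0.0164, standard error 0.676). For each of these 4 genes the liver and kidney ranges did not overlap, as for 53.2% of all genes, and the two-sided exact permutation test gave p = 0.0286, the smallest that 4 against 4 libraries allow. Over all genes, 25.7% were called higher and 27.7% lower in liver. In bulk tissue, fewer cells that express a gene and less of its RNA per cell cannot be told apart.

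The call for Vnn1 was lost without vehicle replicate 2 (adjusted p = 0.0725) and without vehicle replicate 3 (0.0511). Cpt1a, which governs the entry of long-chain fatty acids into mitochondria, and Ehhadh had log2 fold changes between the tissues of 0.13 (95% interval -0.22 to 0.47) and -0.11 (-0.58 to 0.37). The microsomal hydroxylases, which oxidize fatty acids from the omega end, differed in opposite directions without passing in this fit, which does not pair liver and kidney by number: the log2 fold change was 2.85 for Cyp4a14 (adjusted p = 0.0565) and -1.44 for Cyp4a10 (adjusted p = 0.0967). Without the liver and kidney of vehicle replicate 2 they were 1.61 (adjusted p = 0.127) and -2.97 (adjusted p = 6.95e-06), so that Cyp4a10 then passed. Whether the hydroxylases are called between the tissues depends on the fit, since with the replicate number as a block Cyp4a10 passed (adjusted p = 0.00480) and so did Cyp4a14 (adjusted p = 0.0438).

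**Figure D1:**
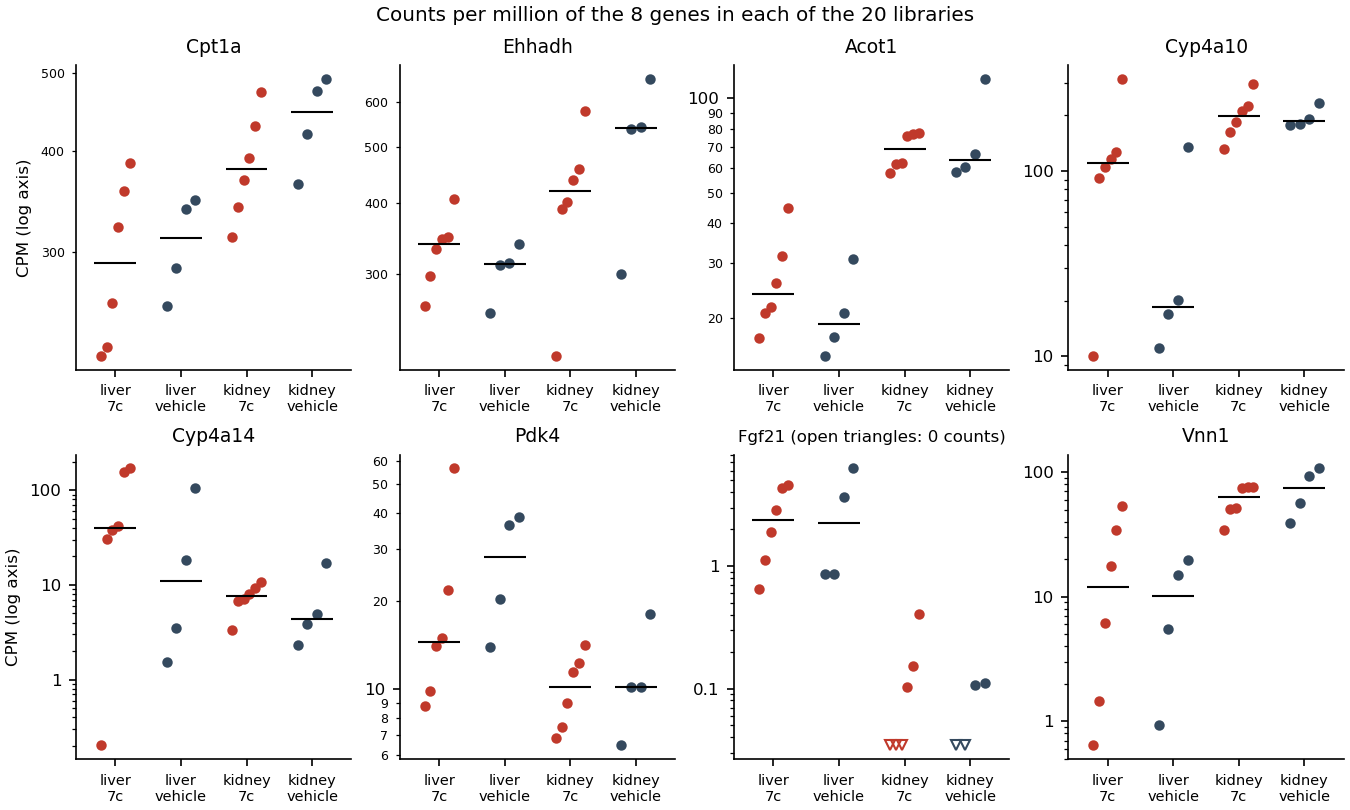
Each point is the CPM of a gene in a library (log axis, scaled within a tissue, so heights are compared within a tissue), for 6 7c and 4 vehicle livers and kidneys. Bars mark medians and open triangles mark libraries with 0 counts. In liver, Cyp4a14 runs from 0.203 CPM in 7c replicate 4 (1.52 CPM in the next lowest library) to 170 CPM and Vnn1 from 0.643 to 53.2 CPM, and every 7c group overlaps its vehicle group.

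With 7c, no difference from vehicle passed the test for any of the 8 genes in liver. None passed an adjusted p of 0.05 (all 1.00), and none reached an unadjusted p of 0.05, against 3.76% of all genes tested (0.00666% by the adjusted p, which is 1 gene). DESeq2, limma-voom and edgeR's likelihood ratio test also called none of them. No member had separate 7c and vehicle ranges, which 0.719% of all genes had.

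Cyp4a10 (ENSMUSG00000066072, chromosome 4, 115375461 to 115390849, plus strand) came closest. It was 16.9, 135, 11.1 and 20.2 CPM in vehicle livers 1 to 4, and in 7c livers the lowest, median and highest values were 10.1, 111 and 314 CPM. In 7c, 5 of 6 livers were between 92.1 and 314 CPM, the level of vehicle replicate 2, while 7c replicate 4 lay below the other 3 vehicle livers. The log2 fold change was 1.48 (standard error 0.794, 95% interval -0.23 to 3.19, unadjusted p = 0.0844), and the exact permutation test over 210 splits gave p = 0.162. Leaving out vehicle replicate 2 raised it to 2.99 and leaving out 7c replicate 1 lowered it to 0.98, with adjusted p of 0.939 and 1.00.

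Cyp4a14 (ENSMUSG00000028715, chromosome 4, 115343397 to 115353344, minus strand) is the neighbour of Cyp4a10, read in the opposite direction. Vehicle livers 1 to 4 had 1.52, 107, 3.52 and 18.4 CPM, and 7c livers had a lowest value of 0.203, a median of 39.6 and a highest value of 170 CPM. The lowest library, again 7c replicate 4, held 6 counts of Cyp4a14 and the highest held 5128. The log2 fold change was 1.16 (standard error 1.16, 95% interval -1.35 to 3.67), which on the linear scale spans a fold of 0.392 to 12.7. Without vehicle replicate 2 it was 3.22 (adjusted p = 0.997) and without 7c replicate 3 it was 0.71.

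Acot1 (ENSMUSG00000072949, chromosome 12, 84056256 to 84065145) had 15.2, 30.8, 17.4 and 20.8 CPM in vehicle livers, and 17.3, 23.8 and 44.9 CPM as the lowest, median and highest values of 7c livers. Its log2 fold change was 0.36 (95% interval -0.20 to 0.91), and it was 0.15 without 7c replicate 1 and 0.60 without vehicle replicate 2. Vehicle replicate 2 was again the highest of the vehicle livers, and 7c replicate 4 the lowest of the 7c livers.

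Ehhadh and Cpt1a ranged less. Ehhadh was 340, 311, 314 and 257 CPM in vehicle livers, and 264, 339 and 407 CPM as the lowest, median and highest values of 7c livers. The difference was 0.12 on the log2 scale with an interval of -0.14 to 0.38, the narrowest of the 8, and it was 0.05 without vehicle replicate 4 and 0.18 without 7c replicate 2. Cpt1a (ENSMUSG00000024900, chromosome 19) was 348, 339, 257 and 286 CPM in vehicle livers and 223, 291 and 387 CPM as the lowest, median and highest values with 7c, a log2 fold change of -0.05 (95% interval -0.40 to 0.30). Its 6 7c livers fell into a low trio of 223 to 260 CPM, replicates 1 to 3, and a high trio of 322 to 387 CPM, replicates 4 to 6, the same trios as for Dbp. Acot1 (25.9 to 44.9 CPM against 17.3 to 21.7 CPM) and Pdk4 (14.99 to 56.6 CPM against 8.77 to 14.04 CPM) were higher in the first of these trios without overlap. The remaining members overlapped between the trios. The share of all genes that separate these trios was not computed, so this is a description without a test. Over the 10 livers, Cpt1a and Dbp had a Pearson r of 0.75 (permutation p = 0.0131, adjusted p = 0.197 over 15 relations of a member with Dbp) and a Spearman rho of 0.794 (permutation p = 0.00888), and r was 0.777 without the 2 livers farthest from the median of Dbp. This relation was looked at after the Dbp values had been seen, it did not pass the adjustment, and the part of the clock phase in any result was not tested.

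Pdk4 (ENSMUSG00000019577, chromosome 6) had 14.0, 20.3, 38.6 and 36.3 CPM in vehicle livers, and 8.77, 14.5 and 56.6 CPM as the lowest, median and highest values with 7c. Only 7c replicate 1 exceeded the vehicle range, and the log2 fold change was -0.38 (95% interval -1.38 to 0.63). It was -0.97 without 7c replicate 1 and -0.16 without vehicle replicate 3. Fgf21 (ENSMUSG00000030827, chromosome 7) was 6.27, 0.859, 0.853 and 3.65 CPM in vehicle livers and 0.643 to 4.59 CPM in 7c livers, 20 to 190 counts a library, with a log2 fold change of -0.18 (95% interval -1.52 to 1.16). Vnn1 (ENSMUSG00000037440, chromosome 10) was 19.6, 5.50, 14.95 and 0.936 CPM in vehicle livers, and 0.643, 12.0 and 53.2 CPM as the lowest, median and highest values with 7c. Each group of livers held both libraries near 1 CPM and libraries above 10 CPM, and the log2 fold change of Vnn1 was 0.89 (95% interval -1.22 to 3.00). It was 0.24 without 7c replicate 6 and 1.40 without vehicle replicate 1.

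**Figure D2:**
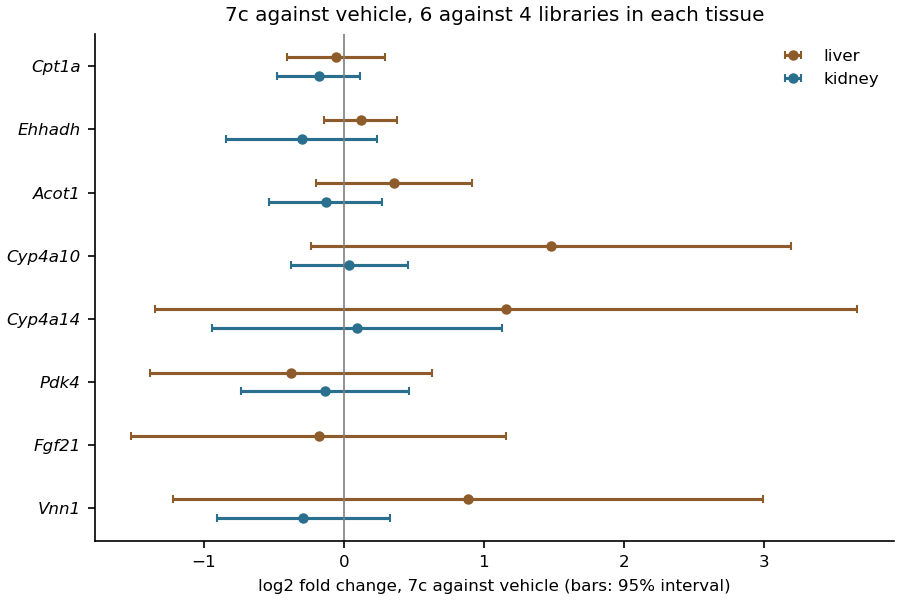
Log2 fold change of 7c against vehicle in liver and kidney (x axis) with its 95% interval for each gene, from 6 7c and 4 vehicle libraries per tissue. Fgf21 did not pass the count filter in kidney. All intervals include 0, and those of Cyp4a14, Vnn1 and Cyp4a10 in liver are the widest.

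In kidney the values of these genes, apart from Ehhadh, lay closer together than in liver, and again no difference with 7c passed. Of the 7 members that passed the count filter, none was called (adjusted p = 0.997 each, against 0% of all genes tested) and none reached an unadjusted p of 0.05, which 2.61% of all genes did. No member had separate ranges, against 0.716% of genes. DESeq2, limma-voom and the likelihood ratio test called none of the 7 either.

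Cpt1a was 420, 364, 474 and 491 CPM in vehicle kidneys, and 313, 380 and 474 CPM as the lowest, median and highest values of 7c kidneys (log2 fold change -0.18, 95% interval -0.47 to 0.12). Ehhadh was 658, 301, 538 and 542 CPM with vehicle and 216, 420 and 578 CPM with 7c in the same order of values, a log2 fold change of -0.30 (95% interval -0.84 to 0.24) that was -0.15 without vehicle replicate 1 and -0.48 without vehicle replicate 2. Vehicle replicate 2 was the lowest vehicle kidney for Cpt1a, Ehhadh and Pdk4. It was also the highest for Acot1, at 115 CPM against 58.4 to 66.3 CPM in the other 3, and for Cyp4a14, at 17.2 CPM against 2.30 to 4.98 CPM. Acot1 was 58.0 to 77.4 CPM in 7c kidneys (log2 fold change -0.13, 95% interval -0.53 to 0.28) and Cyp4a14 was 3.36 to 10.7 CPM (0.09, -0.94 to 1.13).

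Cyp4a10 was 191, 234, 180 and 178 CPM in vehicle kidneys and 132 to 296 CPM in 7c kidneys (log2 fold change 0.04, 95% interval -0.38 to 0.46). Pdk4 was 6.46 to 18.1 CPM with vehicle and 6.82 to 14.1 CPM with 7c (-0.14, -0.74 to 0.46), and Vnn1 was 39.3 to 107 CPM with vehicle and 34.2 to 76.7 CPM with 7c (-0.29, -0.90 to 0.33). The value for Vnn1 was -0.05 without vehicle replicate 3 and -0.50 without vehicle replicate 4. Fgf21 had 0 counts in 5 of the 10 kidneys and at most 17 counts in a library, so no fold change was formed.

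The adipocyte markers separated the 2 groups of kidneys. The summed level of 8 adipocyte markers was 15.4 to 72.8 CPM in 7c kidneys and 0.891 to 14.7 CPM in vehicle kidneys, and Ucp1 had 0 counts in every vehicle kidney. All 7 of the markers that passed the count filter were higher with an unadjusted p under 0.05, and 0 passed the adjusted p in this fit. The paper's own edgeR model listed the adipocyte marker Cidec as higher in 7c kidneys after adjustment. Of the 6 hepatocyte markers, 5 had a log2 fold change below 0 in kidney, 3 of the 6 with an unadjusted p under 0.05 and 0 past the adjusted p, and their summed level was 84.5 to 335 CPM with 7c and 210 to 303 CPM with vehicle. Of the 7 genes of the fed and fasted state tested in kidney, 2 had an unadjusted p under 0.05 and 0 passed, with sums of 1704 to 2733 CPM and 1590 to 2278 CPM. The part of these lists in the kidney values given here was not tested.

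No difference of the 7c effect between liver and kidney passed for the 7 members tested in a single fit of all 20 libraries (adjusted p = 1.00 each, and 0 at an unadjusted p of 0.05), while 0.00706% of all genes were called and 2.49% reached an unadjusted p of 0.05. The difference, liver minus kidney, was 1.43 on the log2 scale for Cyp4a10 (95% interval -0.39 to 3.26), 1.18 for Vnn1 (-1.12 to 3.47) and 1.07 for Cyp4a14 (-1.84 to 3.97). The remaining 4 lay between -0.25 and 0.48. Leaving out a replicate number in both tissues moved Cyp4a10 over 0.83 (without 7c replicate 1) to 2.87 (without vehicle replicate 2) and Cyp4a14 over 0.52 to 2.21 (without the same replicates). Vnn1 moved over 0.60 (without 7c replicate 6) to 1.80 (without vehicle replicate 1).

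What set several of these genes apart was how much they varied between mice in liver. The SD of log2 CPM around the treatment means over the 10 livers was 3.17 for Cyp4a14, higher than in 99.9% of the 15012 genes tested, whose median was 0.302. It was 2.31 for Vnn1 (percentile 99.8), 1.63 for Cyp4a10 (98.9), 1.22 for Fgf21 (95.3) and 0.881 for Pdk4 (88.0). Acot1 was at percentile 67.8, Cpt1a at 49.0 and Ehhadh at 27.8. In kidney, where the median SD over all genes was 0.349, Cyp4a14 reached 0.877 (percentile 90.3), and the other members tested lay between percentile 22.6 for Cpt1a and 73.9 for Vnn1. These percentiles pool both treatments and describe the spread without a test. The lowest liver held 6 counts of Cyp4a14, 20 of Vnn1, 20 of Fgf21 and 297 of Cyp4a10. The biological coefficient of variation that edgeR estimates beyond counting error was 1.15 for Cyp4a14 (percentile 99.6 of all genes), 0.979 for Vnn1 (98.9), 0.773 for Cyp4a10 (95.9) and 0.659 for Fgf21 (92.2).

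Cyp4a10, Cyp4a14 and Acot1 were the members most alike in their order over the 10 livers. By Cyp4a10 the livers lay in a low set of 4 (7c replicate 4 and vehicle replicates 1, 3 and 4) at 10.1 to 20.2 CPM and a high set of 6 at 92.1 to 314 CPM, 2.18 apart on the log2 scale. Within the 6 livers of the high set, the Pearson r was 0.694 for Cyp4a10 with Cyp4a14, 0.855 for Cyp4a10 with Acot1 and 0.825 for Cyp4a14 with Acot1, and the Spearman rho was 0.771, 0.714 and 0.771. These pairs and this split were chosen from the same livers, so the values are a description with no test. No relation was computed over the 4 livers of the low set, and the values over all 10 livers in part describe the gap between the sets.

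Of 56 relations computed over 10 libraries (28 pairs of members in liver, 21 in kidney and 7 genes between liver and kidney of the same replicate number), 2 passed an adjusted p of 0.05, both in liver. Cyp4a10 and Cyp4a14 had a Pearson r of 0.90 (permutation p = 9.00e-05, adjusted p = 0.00504) and a Spearman rho of 0.939 (adjusted p = 0.00644), and r was 0.866 without the 2 livers farthest from the median of Cyp4a10. Cyp4a10 and Acot1 had an r of 0.857 (permutation p = 0.00123, adjusted p = 0.0344) and a rho of 0.903 (adjusted p = 0.0175), and r was 0.839 without the 2 farthest livers (adjusted p = 0.140). Cyp4a14 and Acot1 had an r of 0.827 (adjusted p = 0.0616) and a rho of 0.939 (adjusted p = 0.00644).

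**Figure D3:**
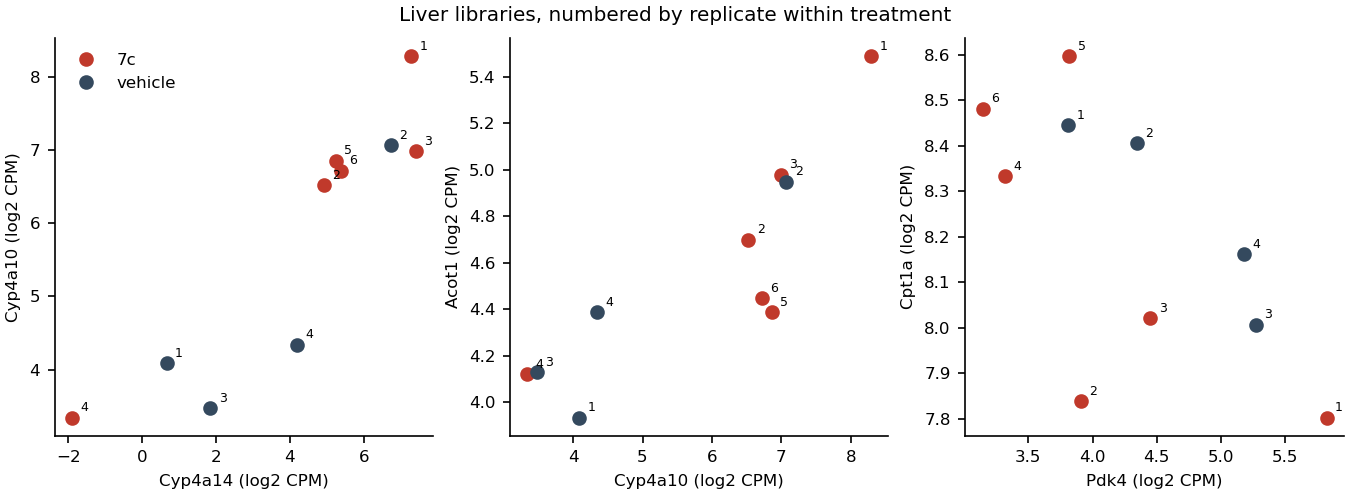
Log2 CPM of gene pairs in the 10 liver libraries, each point numbered by replicate within its treatment. Cyp4a10 rises with Cyp4a14 (r = 0.90) and with Acot1 (r = 0.857), with 7c replicate 4 and vehicle replicates 1, 3 and 4 at the low end of Cyp4a10, and Cpt1a is lower where Pdk4 is higher (r = -0.66, not past the adjustment).

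When each liver was taken as its deviation from its treatment mean, r stayed at 0.931 for the pair of hydroxylases and at 0.836 for Cyp4a10 with Acot1, but with permutation within the treatments the adjusted p was 0.0854 and 0.0874. The relation of Cyp4a10 with Acot1 also passed no longer when any of 7c replicates 1 and 4 and vehicle replicates 1, 3 and 4 was left out (adjusted p = 0.0618 to 0.160), whereas that of the hydroxylases passed without each replicate in turn (r = 0.887 to 0.939).

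Other relations did not pass. Cpt1a and Pdk4, whose products respectively admit fatty acids to mitochondria and hold back pyruvate, had an r of -0.66 in liver (permutation p = 0.0424, adjusted p = 0.340), and Ehhadh and Vnn1 an r of 0.718 (adjusted p = 0.216). Over the 28 liver pairs the median r was 0.16, with 24 above 0. In kidney the median was 0.05, with 11 of 21 above 0, and the highest values were 0.749 for Cpt1a with Ehhadh (adjusted p = 0.151) and 0.662 for Cyp4a10 with Cyp4a14 (adjusted p = 0.340). Between the liver and kidney of the same number, r ran from -0.39 for Cyp4a10 to 0.605 for Vnn1, and none passed.

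**Figure D4:**
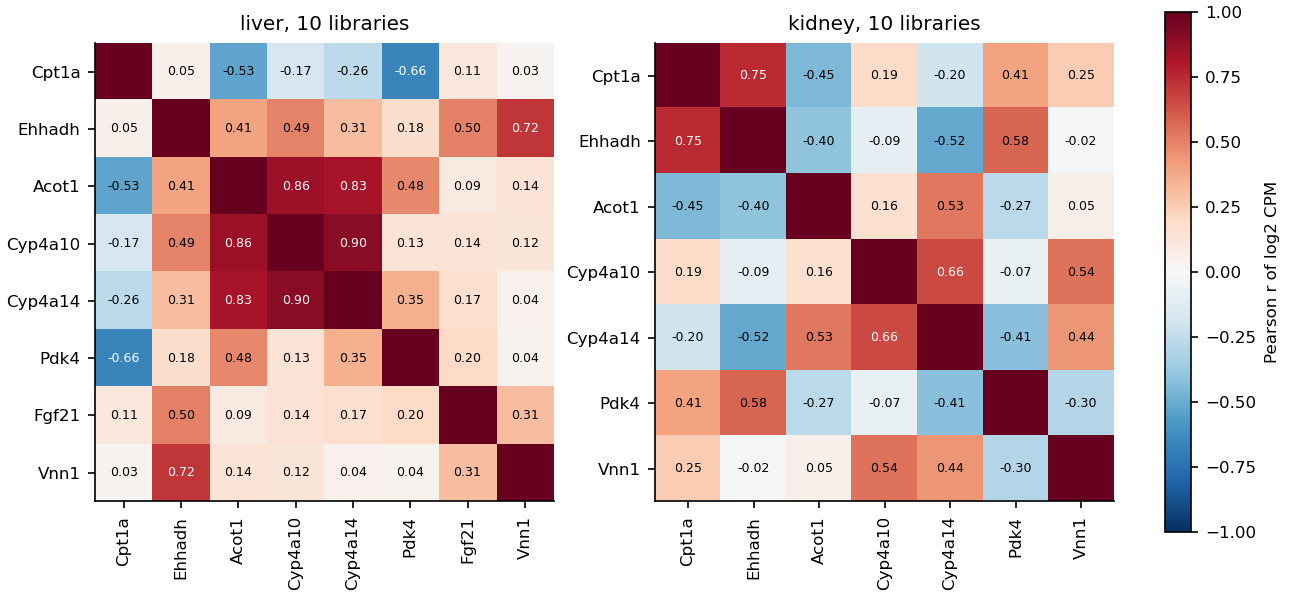
Pearson r of log2 CPM between members over 10 livers (8 genes) and 10 kidneys (7 genes, without Fgf21). The block of Cyp4a10, Cyp4a14 and Acot1 in liver holds r of 0.83 to 0.90, and in kidney only the hydroxylase pair of that block is above 0.6.

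The near copies of these genes help to read the counts. Of the 50-base stretches of the Cyp4a10 transcript, 37.0% also occur in another gene, 31.5% in Cyp4a32 and 15.3% in Cyp4a31, and of those of Acot1, 33.5% are shared, 23.6% with Acot2. For the other members the share is at most 1.37%. Cyp4a10 and Acot1 counts are uncertain to that extent, since how the counting treated such reads is not given in the sources used here. Ehhadh and Fgf21 overlap Gm55001 and Fut1 on the opposite strand, and the strand setting of the counting is likewise not given.

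Cyp4a31 was low in the same livers as Cyp4a10. It was 0.199 to 0.561 CPM in vehicle replicates 1, 3 and 4 and 0.373 CPM in 7c replicate 4, the livers with little Cyp4a10, and 1.91 to 6.13 CPM in the other 6. These were 7 to 17 counts and 53 to 214 counts per library. The part of reads shared with Cyp4a10, of whose 50-base stretches 15.3% occur in Cyp4a31, was not tested. Cyp4a32 was ordered differently: 7c replicate 4 (36.4 CPM) lay between the other 7c livers, and vehicle replicates 2 and 4 were the highest, at 130 and 88.1 CPM. Acot2, the mitochondrial counterpart of Acot1, was 3.602 to 7.79 CPM over all livers.

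Around the members, 106 genes of the same biology were sorted into 10 lists, from the receptors to ketone body metabolism. With 7c, 0 of the 101 tested in liver and 0 of the 103 tested in kidney passed the adjusted p, and 2 in each tissue reached an unadjusted p of 0.05, which 3.76% of all genes did in liver and 2.61% in kidney. In liver 71 of the 101 had a log2 fold change above 0, with a median log2 fold change of 0.06 against 0.00 over all genes, of which 7563 of 15012 were above 0. The 15 genes of mitochondrial beta-oxidation had 14 above 0 and a median of 0.07, and peroxisomal beta-oxidation had 11 of 14 above 0 and a median of 0.08. The carnitine shuttle list had 3 of 8 above 0 (median -0.04) and the receptors and coregulators 6 of 12 (median -0.01). Genes of a list are not independent of each other, and these counts carry no test. In kidney the median of the 103 was 0.00, with 52 above 0. Between the tissues, 56 of 104 were called higher and 26 lower in vehicle liver, against 25.7% and 27.7% of all genes, and for the difference of the 7c effect 0 of 99 passed.

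**Figure D5:**
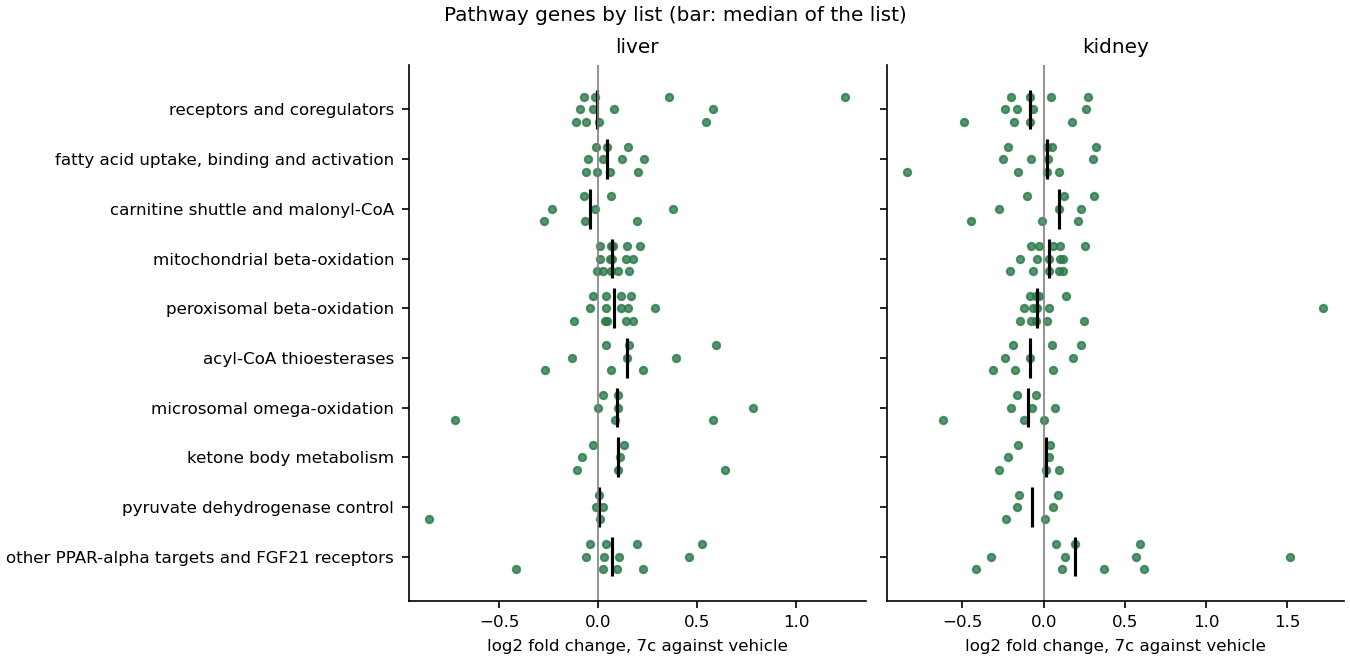
Log2 fold change of 7c against vehicle (x axis) for each pathway gene tested, by list, in liver and kidney. Bars mark the median of each list. In liver the medians range over -0.04 to 0.14 and in kidney over -0.10 to 0.19, and no gene passed the adjusted p.

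Among the receptors, Ppara itself measured 53.8 ± 22.3 CPM in 7c livers (SD, n = 6) and 50.9 ± 9.56 CPM in vehicle livers (n = 4) (log2 fold change 0.08, 95% interval -0.45 to 0.61). In kidney it was 10.5 CPM on average with 7c and 14.8 CPM with vehicle (-0.49, -1.01 to 0.03, unadjusted p = 0.0631). Lpin1, a phosphatidate phosphatase that also acts as a coactivator of PPAR-alpha, was 32.5 to 39.1 CPM in 7c livers 1 to 3, 30.2 to 40.3 CPM in vehicle livers, and 65.7, 166 and 174 CPM in 7c livers 4 to 6. Its log2 fold change was 1.25 (standard error 0.475, unadjusted p = 0.0206, adjusted p = 1.00). The 3 high livers are those with high Dbp, and 1 of them is the liver with skeletal muscle transcripts. The part of either in the value was not tested. Ppargc1b had a log2 fold change of 0.55 in liver and Ncor1 of -0.20 in kidney.

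Oxct1, which uses ketone bodies and is low in hepatocytes, had a log2 fold change of 0.64 in liver (95% interval -0.26 to 1.54) and -0.16 in kidney (-0.41 to 0.09). Slc16a6 was at -0.27 in kidney.

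In the peroxisomal beta-oxidation list, Scp2 was at -0.12 in liver and Acaa1a at 0.25 in kidney. Abcd2, a peroxisomal importer of fatty acids that fat tissue expresses, had the lowest unadjusted p of its list in kidney: it was 0.364 to 2.03 CPM with 7c and 0.105 to 0.803 CPM with vehicle (log2 fold change 1.72, standard error 0.631, unadjusted p = 0.0179, adjusted p = 0.997). Its counts were low, at 24 to 76 per 7c kidney and 4 to 30 per vehicle kidney. Plin2 (0.62) and Hilpda (0.57), which coat or spare lipid droplets, had the lowest unadjusted p of their list in kidney (0.0953 and 0.136). The summed adipocyte markers were also higher in 7c kidneys, and their part in these values was not tested.

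In the omega-oxidation list, Cyp4a32 had a lower mean with 7c in both tissues: the log2 fold change was -0.72 in liver (unadjusted p = 0.0444) and -0.62 in kidney (unadjusted p = 0.0119), with adjusted p of 1.00 and 0.997. Cyp4a12b was at 0.78 in liver, Aldh3a2 at -0.12 in kidney and Cyp4a31 at 0.58 in liver and 0.00 in kidney. Among thioesterases, Acot12 (-0.13) and Acot8 (0.23) had the lowest unadjusted p in liver and Acot2 (-0.24) and Acot8 (0.23) in kidney, and Acot2 was at -0.27 in liver.

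The carnitine shuttle genes Crot (-0.24) and Slc25a20 (0.19) had unadjusted p of 0.0618 and 0.0622 in liver, and Mlycd (0.31) and Acacb (0.23), which break down and make malonyl-CoA, had 0.0883 and 0.102 in kidney. The lowest unadjusted p of mitochondrial beta-oxidation were those of Decr1 (0.15) and Acadvl (0.18) in liver, and of Etfdh (-0.21) and Acadm (-0.14) in kidney. In fatty acid uptake they were those of the transporter Slc27a1 in both tissues (0.23 and 0.32), with Fabp1 (0.15) in liver and Slc27a5 (-0.84) in kidney. Of the genes that act with Pdk4 on pyruvate dehydrogenase, the phosphatase Pdp1 (-0.85, unadjusted p = 0.0572) and Pdha1 (0.02, unadjusted p = 0.851) had the lowest p of the 5 tested in liver, and Pdp2 (-0.15) and Pdha1 (-0.23) in kidney. Pdp1 was low, at 0.266 to 1.01 CPM in 7c livers and 1.03 to 1.46 CPM in vehicle livers. Its ranges did not overlap, as for 0.719% of all genes in liver. G0s2 (-0.42) and Ucp2 (0.20) had the lowest p of the remaining targets in liver (0.170 and 0.239).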

How the data were processed

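RNA of 10 livers and 10 kidneys was sequenced from stranded, polyadenylated libraries. Alignment to GRCm39 with STAR 2.7.11b and counting with featureCounts 2.0.6 were done by the authors. The deposited values are raw counts, whole numbers without normalization, for 57010 genes, of which 56310 identifiers matched GENCODE vM39. The annotation release and strand setting the authors used are not given in the sources used here.

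The filter asked for a minimum of 10 counts in 50% or more of a comparison's libraries, and the genes left were tested with edgeR 4.0.16 (R 4.3.3, TMM, quasi-likelihood F-test, threshold 0.05 after Benjamini-Hochberg adjustment over all genes). Exact permutation tests were two-sided, with a smallest p of 0.00476 for 6 against 4 libraries. Correlations used log2 CPM (prior count 2) and 100000 permutations, with adjustment over all relations. Intervals are 95% intervals of the fit. Counting error limits mainly genes with few counts, and counts are not given for every such gene outside the members. Lengths are the union of exons.

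Alternative settings were DESeq2 1.42.0, RLE size factors, limma-voom with limma 3.58.1, the likelihood ratio test, no filter, filterByExpr, a replicate block, both tissues in 1 fit and leaving out each replicate (its number in both tissues where both enter the fit). For correlations, leaving out each replicate was added after the data were seen. The quasi-likelihood fit was tested on simulated counts in which every gene had the same spread beyond counting error. That test therefore does not bear on members with a large spread between mice. The members and lists were chosen with earlier results of these data known. All members, the 2 genes of lowest p per list and tissue, and Ppara, Acot2 and Cyp4a31 are named by rule, as are the 5 genes per tissue most like the members. A few other genes that the rule names are not reported here. The names Dbp and Bmal1 were added after their values were seen. Libraries of the same tissue differed by a chi-square per gene of at least 22.9 in all 90 pairs, so none was counted as a repeat.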

Additional observations from a re-analysis of the deposited data

Results flagged for a closer look

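In the livers of 7c mice, replicate 4 stood apart from the other 5 for both microsomal hydroxylases. It had 10.1 CPM of Cyp4a10, against 92.1 to 314 CPM in the others, and 0.203 CPM of Cyp4a14, against 30.2 to 170 CPM. On the log2 scale its gap to the nearest library was 0.643 and 0.732 of the range of the group, beyond Dixon's 95% critical value for 6 values. Of 30 groups of libraries examined 2 were picked out in this way, and chance alone picks out about 1 in 20. Without this liver the log2 fold change of 7c against vehicle was 1.72 for Cyp4a10 and 1.42 for Cyp4a14, with adjusted p of 1.00 each. Its hepatocyte markers, at 83483 CPM, were within the range of the other livers.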

How the results depend on the processing

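With 7c, 0 members and 0 pathway genes were called in liver, in kidney or in the difference between them under every alternative run, whereas the number of all genes called moved. In liver it was 1 and became 6 with DESeq2, 7 with the likelihood ratio test, 4 with no filter, 2 with filterByExpr, 0 with the replicate block, 4 with both tissues in 1 fit and 0 to 2 without a replicate. In kidney it was 0 and became 18, 14 and 3 with the first 3 of these, 2 with limma-voom, 18 with both tissues in 1 fit and 0 to 3 without a replicate. For the difference it was 1 and became 16, 22 and 11 with DESeq2, the likelihood ratio test and no filter, 2 with filterByExpr, 0 with limma-voom and with the replicate block, and 0 to 6 without a replicate. The causes were not tested.

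Between the vehicle tissues, 4 members were called, and the calls of Pdk4, Fgf21 and Acot1 held in all 11 alternatives. Cyp4a10 also passed with limma-voom, no filter and the replicate block (adjusted p = 0.00480), and Cyp4a14 with the likelihood ratio test, no filter and the block (0.0438). Livers and kidneys of the same number and treatment deviated together with r of 0.0115 to 0.259, over 0.1 in 7 of 10 pairs, and 8 of 10 livers correlated best with their own number. For 7c and vehicle of the same number, 0 of 4 liver pairs and 1 of 4 kidney pairs were over 0.1. That kidney pair, at 0.293, was above every value between liver and kidney. The labels do not say that a liver and a kidney of the same number come from the same mouse, so the values between tissues are a hint of pairing, and the fit without the block was kept. Between 7c and vehicle the samples share only a number.

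Fold changes near 0 changed sign. With the replicate block the kidney values became -0.0071 for Cyp4a10, 0.015 for Acot1 and 0.14 for Pdk4, and with limma-voom Fgf21 in liver became 0.072. Without a replicate the ranges were -0.14 to 0.017 for Cpt1a and -0.48 to 0.52 for Fgf21 in liver. In kidney they were -0.10 to 0.14 for Cyp4a10, -0.20 to 1.04 for Cyp4a14, -0.23 to 0.16 for Acot1 and -0.32 to 0.19 for Pdk4. Between the vehicle tissues they were -0.093 to 0.25 for Cpt1a and -0.39 to 0.0013 for Ehhadh, and for the difference of effects -0.029 to 0.26 for Cpt1a and -0.82 to 0.010 for Pdk4. Without vehicle replicate 2, Ehhadh passed between the tissues (adjusted p = 0.0476). The 2 called correlations became 0 with deviations from the treatment means, 1 without the 2 farthest libraries and 1 to 4 without a replicate. Depth limits Fgf21 in kidney, where 3 counts correspond to 0.0454 to 0.105 CPM.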

Other observations

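The genes outside the members whose log2 CPM was most like theirs over the 10 livers, by the mean Pearson r with the 8 members, were Hmgn2 (0.51), Rdh11 (0.51), 2410006H16Rik (0.50), Rilp (0.50) and As3mt (0.50). Rdh11 is a retinol dehydrogenase and As3mt methylates arsenic. Over the 10 kidneys, with 7 members, they were Gla (0.43), H3f3aos (0.41), Zfp582 (0.40), Gad1 (0.40) and Naip1 (0.40), of which all but Gla had a mean under 0.5 CPM. The lowest r of Rdh11 with a member was -0.11 and the highest 0.80. These values describe the same libraries that set the members' pattern, and carry no test.

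The 15 relations of a member with the clock gene Dbp (8 in liver and 7 in kidney) gave no adjusted p under 0.197. After Cpt1a in liver, the largest were Ehhadh in kidney (r = -0.59, permutation p = 0.0728) and Pdk4 in liver (r = -0.54, permutation p = 0.107), both with an adjusted p of 0.535. In kidney, Dbp was 6.44 to 16.3 CPM in 7c replicates 1 to 3, 13.6 to 36.5 CPM in vehicle mice and 93.8 to 116 CPM in 7c replicates 4 to 6, the same division as in liver.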
